A study of Homo sapiens with 40 samples.

Results

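Convergent genes lie on opposite strands and are transcribed towards each other, so that their last exons can share the same stretch of DNA. In the deposited catalogue of transcript models, 146 pairs of genes on opposite strands had last exons that overlapped by at least 20 nt in at least 1 combination of their models. These pairs held 292 different genes, since no gene belonged to more than 1 pair, and the catalogue held 9460 genes. Counted by chromosome and strand, the members made up 3.08% of 9470 gene loci. The positions of last exons chose the pairs, so overlap length and position are given as descriptions with no test.

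The models were deposited with a study of messenger RNA on ribosomes in the established line H9, whose cells are human embryonic stem cells (ESC). Neural progenitor cells (NPC) derived from H9 by dual-SMAD inhibition were compared with untreated ESC. Libraries of both were made from the cytosol, for which no ribosome number is given, and from 3 fractions by ribosome load. These were the monosome, the light polyribosome with 2 to 4 ribosomes per RNA, and, with 5 or more, the heavy polyribosome. All 40 libraries were of polyadenylated RNA; each of the 8 combinations of cell type and fraction had 2 long-read and 3 short-read libraries (16 and 24 in all). The catalogue names PacBio as its source whereas the labels describe R2C2 long reads, and the libraries it was built from are not stated. It carries no value per library, so NPC and ESC, or the fractions, are not compared and the depth is unknown. Of 6 NPC markers 5 had a model, with SOX1 lacking one, and of 6 ESC markers 5 did, with LIN28A lacking one. Every model is spliced, so a gene without introns could not have a model. A missing model therefore does not show missing expression.

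The last exon of a messenger RNA usually holds the stop codon, the 3' untranslated region (3' UTR) and the cleavage and polyadenylation site that sets the 3' end. Where convergent genes end past one another, each RNA carries a stretch complementary to the other, and such pairs are known as natural antisense transcripts. Cleavage and polyadenylation at another site, or splicing to another last exon, gives an RNA of the same gene with a different 3' end. Every model in the catalogue is spliced and has its own chain of introns, so RNAs that differ in their 3' end alone are not represented.

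The median overlap was 176.5 nt, and the quartiles were 66.75 and 318.25 nt. They ranged between 21 and 1457 nt. At least 100 nt were shared in 91 pairs (62.3%), at least 500 nt in 19 (13.0%) and at least 1000 nt in 4 (2.74%). Together the overlaps covered 37379 nt, and 144 of the 146 pairs had 1 unbroken stretch. No pair had an intron in common between its strands.

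The longest overlap, 1457 nt on chromosome 1 between 2403980 and 2405436, lay between RER1, which encodes a Golgi protein that returns membrane proteins to the endoplasmic reticulum, and PEX10, a peroxisomal ubiquitin ligase gene. It consisted of 3' UTR on both strands. Its full length was held by only 1 model of each gene. The other PEX10 models ended inside it, 117 nt from its centre, and the other RER1 model avoided it. The next longest overlap was 1435 nt of PCGF3, a Polycomb-group gene, and its antisense gene PCGF3-AS1 on chromosome 4 between 766181 and 767615. MTRF1L, a mitochondrial translation release factor gene, shared 1331 nt on chromosome 6 between 152988676 and 152990006 with ENSG00000227627, for which no gene type was found. MRPS18C, a mitochondrial ribosomal protein gene, and ABRAXAS1, whose product belongs to a BRCA1 complex, shared 1174 nt on chromosome 4. The focal adhesion gene PXN and PXN-AS1 shared 968 nt in 3 stretches on chromosome 12. The other 5 of the 10 longest overlaps were those of ZSCAN21 and ZNF3, both zinc finger genes (883 nt), NCAPH2 and SCO2 (856 nt), ALG1 and EEF2KMT (838 nt), SMIM27 and NDUFB6 (800 nt), and ARG2 and VTI1B (767 nt).

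At the other end of the range, pairs just inside the threshold included CCAR2 and BIN3 (21 nt), ILK and TAF10 (23 nt), RANGRF and SLC25A35 (25 nt) and DNALI1 and GNL2 (26 nt). A further 13 pairs overlapped by less than 20 nt. The longest of these were RPF1 and GNG5 (14 nt), SMARCB1 and DERL3 (12 nt), CD2BP2-DT and TBC1D10B (9 nt), PSME1 and EMC9 (7 nt) and SPTAN1 and DYNC2I2 (7 nt).

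**Figure D1:**
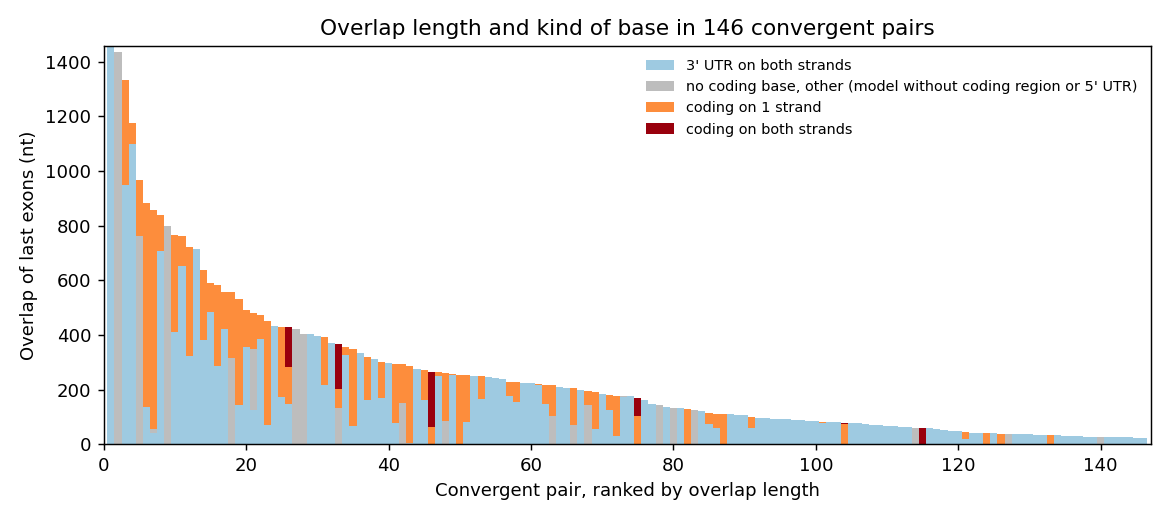
Length of the last-exon overlap in nt (y axis) for each of the 146 pairs, ranked by length (x axis), with the kind of base stacked in colour. The bars run between 1457 and 21 nt; coding bases on 1 strand (orange) are frequent among the longer overlaps, and coding bases on both strands (dark red) are found in 6 pairs.

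The last exons met in 3 arrangements, taken for the pair of models with the largest overlap. In 89 pairs (61.0%) they overlapped tail to tail, so that each 3' end lay inside the partner's last exon. In 36 pairs (24.7%) the whole last exon of 1 gene lay inside the last exon of the other. In the remaining 21 pairs (14.4%) the exons ran through each other: each passed the beginning of the partner's last exon, so that the beginnings of both last exons bounded the overlap and both 3' ends lay outside it. The median overlap was 89 nt in tail-to-tail pairs, 417 nt where 1 exon lay inside the other and 216 nt where they ran through each other. The label of convergent 3' ends thus describes most pairs, and in 5 pairs the span of 1 gene lay wholly inside that of the other.

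In 24 pairs the exonic overlap went beyond the last exons. Of these, 11 were pairs whose last exons ran through each other, and 2 were tail-to-tail pairs. The D-serine-producing racemase gene SRR and TSR1, a ribosome maturation factor gene, shared 720 nt of last exons and 1146 nt of exons in all. SNAP47, a SNARE gene, and JMJD4, a hydroxylase gene, shared 288 nt of last exons and 992 nt in all. A search for a last exon of 1 gene against any exon of the other added 27 pairs to the 146.

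**Figure D2:**
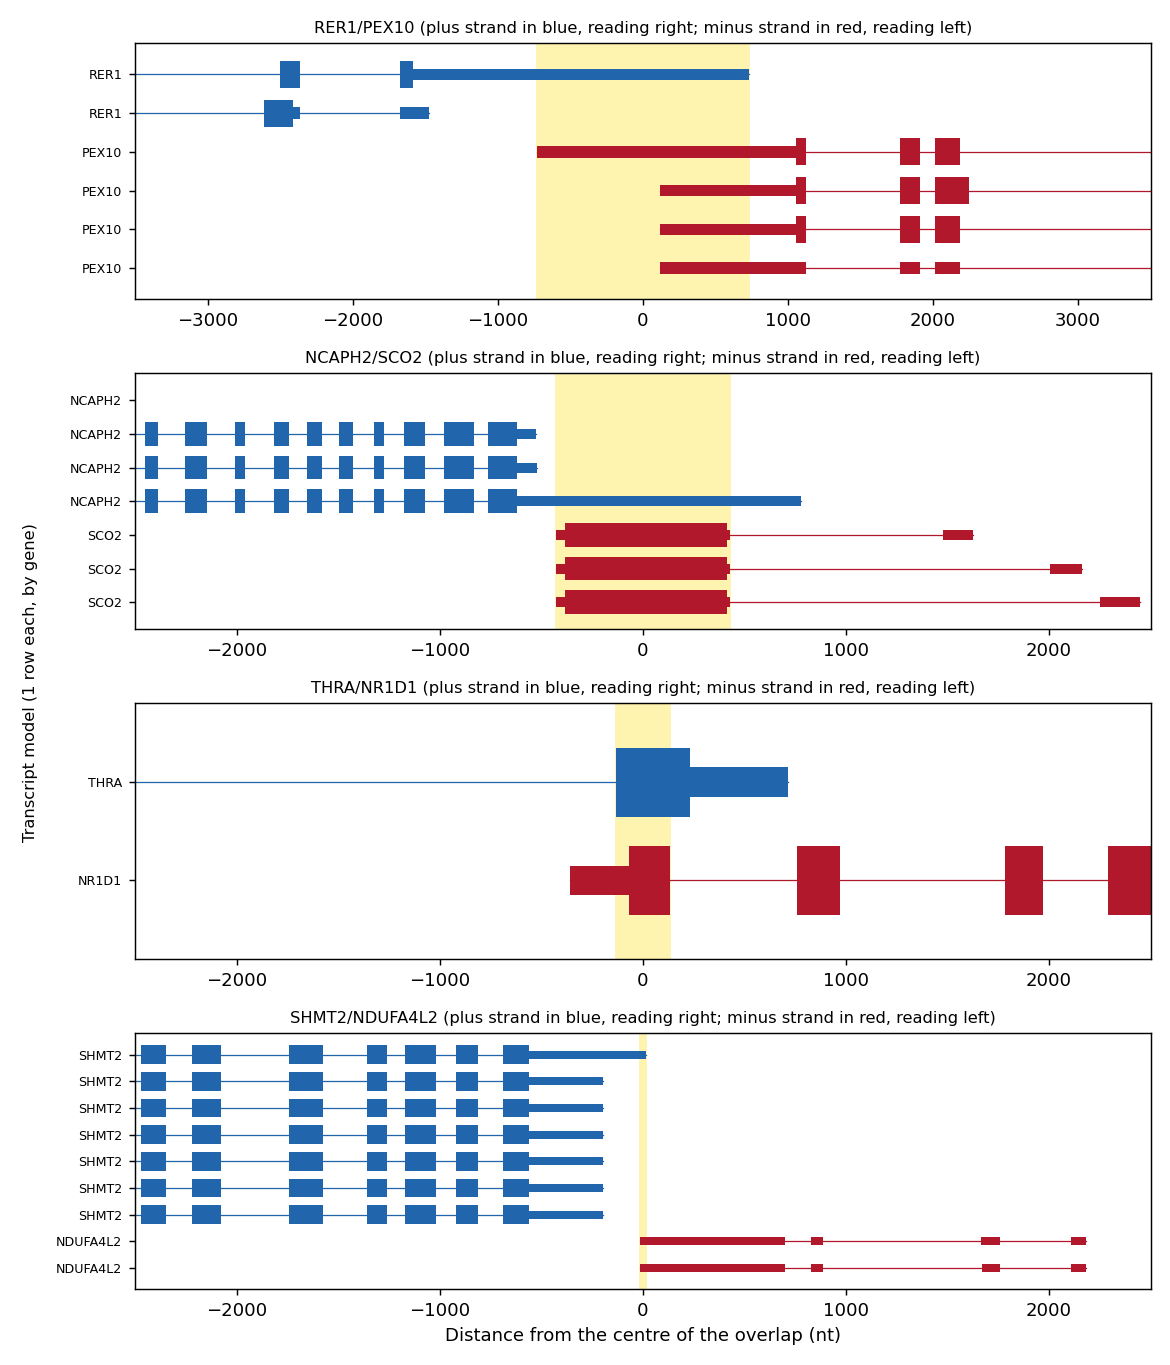
Transcript models of 4 pairs around their overlap (shaded), drawn to scale as distance in nt from its centre (x axis), 1 row per model (y axis), in which tall boxes are coding regions, low boxes the rest of the exons and lines the introns. The 1457 nt of RER1/PEX10 and the 26 nt of SHMT2/NDUFA4L2 are tail to tail, the last exon of SCO2 lies inside that of NCAPH2, and THRA and NR1D1 run through each other; 1 NCAPH2 model ends left of the window.

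Most overlapping bases were 3' UTR on both strands. Counting each strand separately, 75.2% of the 74758 strand positions were 3' UTR, 14.6% were coding, 9.85% belonged only to models without a coding region and 0.294% were 5' UTR. Base by base, 57.5% were 3' UTR on both strands, 20.9% were coding on 1 strand and 3' UTR on the other, and 1.71% were coding on both. A base that was coding in any model was counted as coding. By pair, 74 of 146 (50.7%, 95% Wilson interval 42.7 to 58.7%, which covers counting error only) were 3' UTR throughout on both strands. Another 61 (41.8%, 34.1 to 49.9%) held at least 1 coding base, and 11 held neither a coding base nor 3' UTR throughout.

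Coding bases were found in overlaps of each arrangement, at different counts. They occurred in 9 of the 89 tail-to-tail pairs, in 32 of the 36 pairs with 1 exon inside the other and in 20 of the 21 pairs that ran through each other. The arrangement and the placing of stop codons both follow from the exon positions, so the difference between these counts is a description. Where both models of the largest overlap had a coding region, in 114 pairs, the stop codons lay at a median of 697 nt from each other, and in 6 pairs they had passed each other.

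The most coding bases lay in the overlap of NCAPH2 and SCO2 on chromosome 22, 50523569 to 50524424. SCO2, which encodes a mitochondrial copper chaperone for cytochrome c oxidase, has its coding region in its last exon. All 3 SCO2 models carried the 856 nt, of which 801 nt were coding, opposite the 3' UTR of NCAPH2, a condensin II subunit gene. ZSCAN21 and ZNF3 followed with 747 coding nt on chromosome 7, 622 on the ZSCAN21 strand and 125 on the ZNF3 strand, at different bases. SRR and TSR1 held 398 coding nt, and AIMP2, a scaffold gene of the tRNA synthetase complex, held 389 opposite the 3' UTR of the heme-regulated kinase gene EIF2AK1.

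The remainder of the 10 pairs with the most coding bases held between 283 and 384 coding nt. They were MTRF1L and ENSG00000227627 (384 nt), the kinase gene VRK2 and the Fanconi anaemia gene FANCL (381 nt), and the mitochondrial arginase gene ARG2 and the SNARE gene VTI1B (356 nt). STUB1, a chaperone-associated ubiquitin ligase gene, and JMJD8 held 297 nt, SNAP47 and JMJD4 held 285 nt, and ENDOG, the endonuclease G gene, and SPOUT1 held 283 nt. In 9 pairs every base of the overlap was coding on at least 1 strand.

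In 6 pairs the same bases were coding on both strands, and in each of them the last exons ran through each other and the stop codons had passed each other. THRA, the thyroid hormone receptor alpha gene, and NR1D1, which encodes the circadian repressor REV-ERB alpha, had the most such bases on chromosome 17, 40093020 to 40093282. Their overlap of 263 nt was coding throughout on the THRA strand, and 200 nt were coding on both. Each gene had 1 model, and the coding regions as deposited held 491 codons for THRA and 615 for NR1D1. TAP1, the peptide transporter gene of antigen presentation, and PSMB8-AS1 had 165 nt coding on both strands, although RefSeq types PSMB8-AS1 as a long non-coding RNA gene. RNF220, a ubiquitin ligase gene, and TMEM53 had 147 nt, and SQSTM1, the selective autophagy receptor gene, and MRNIP had 64 nt. DAZAP2 and SMAGP had 59 nt, which was their whole overlap, and SNX10 and SNX10-AS1 had 5 nt. The coding regions are those of the deposited models, and whether they are translated was not tested.

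The overlap took up different shares of the 3' UTR. Among 270 member genes whose overlapping models had a coding region and a 3' UTR of more than 2 nt, the overlap covered a median of 29.3% of the longest such 3' UTR, with quartiles of 11.7 and 62.7%. It covered the 3' UTR completely in 33 genes (12.2%), among them SCO2 (42 nt), the DNA repair gene ERCC1, the acetyltransferase gene KAT5 and STUB1. It covered less than 10% in 59 genes. PEX10 had 1457 of the 1786 nt of its longest 3' UTR in the overlap (81.6%), and SHMT2, the mitochondrial serine hydroxymethyltransferase gene, had 26 of 574 nt (4.53%).

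Both genes were protein-coding by RefSeq's types in 123 pairs (84.2%), 1 gene was in 21 (14.4%) and neither was in 2. The members comprised 267 protein-coding genes, 19 long non-coding RNA genes, 2 transcribed pseudogenes and 4 identifiers without a type. A gene named as antisense or opposite-strand took part in 17 pairs. Among protein-coding pairs 47 of 123 held coding bases and 71 were 3' UTR throughout on both strands. The overlap of OIP5 with OIP5-AS1, a long non-coding RNA also known as Cyrano, was 38 nt in 1 of 5 OIP5-AS1 models, and the other 4 ended upstream of it. FAM86JP and ALG1L, the pseudogene pair (293 nt), belong to multigene families, and their models are uncertain where near-identical copies exist.

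Many member genes also had a model that left the overlap out. Of the 184 members with at least 2 models, 74 (40.2%, 95% Wilson interval 33.4 to 47.4%) had at least 1 model with no exonic base in the overlap, whereas 108 members had only 1 model and could not show any. Of the 771 models of member genes, 603 had their last exon in the overlap by at least 20 nt and 154 had no base there. The other 14 held fewer bases or reached the overlap with another exon. By pair, neither gene had an avoiding model in 82 (56.2%), 1 gene did in 54 (37.0%) and both did in 10 (6.85%).

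Where both genes had an avoiding model, the catalogue held forms of both RNAs that leave the shared stretch out. Among these 10 pairs were PCGF3/PCGF3-AS1, TOM1L1/COX11, PRIMPOL/CENPU, RNF220/TMEM53, TXNDC17/MED31, CXADR/BTG3, ACTL6A/MRPL47, NSG1/STX18 and CSTPP1/ARFGAP2. Among the 59 pairs in which both genes had at least 2 models, both genes had an avoiding model in these 10, 1 gene did in 33 and neither did in 16. Overlaps often rested on few models: at least 1 gene was held by a single model in 119 pairs, and both were in 39. In part this was fixed by the number of models. In 21 pairs both genes had only 1 model, and outside the 59 pairs at least 1 gene did. At least 2 models were found for 63.0% of members and 49.9% of all loci.

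Avoidance took several forms. Another last exon upstream of the overlap was used by 81 of the 154 avoiding models (52.6%) in 44 genes, with ends at a median of 7133 nt before the overlap. Another last exon downstream of the overlap was used by 14 models (9.09%) in 8 genes. The overlap lay in an intron of 9 of these models, and the other 5, 4 of SNAP47 and 1 of SLC25A35, began beyond it. In 55 models (35.7%) of 24 genes the last exon overlapped that of the other models but ended before the shared stretch, at a median of 282 nt from it. In the remaining 4 models, of NR2C2AP and CTC-338M12.4, the last exon overlapped that of the other models but began beyond the shared stretch. The catalogue holds no models that differ in their 3' end alone. A shorter end in the same last exon is therefore seen only where an intron also differs. These shares thus cannot be read as the frequency of each form. The coding region ended within 2 nt of the model's end in 8 avoiding models of 6 genes, among them 3 of SSB, which leaves these models without a 3' UTR of more than 2 nt.

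The 10 genes with the most models among those with both kinds differed in which kind was more frequent. RNF220 had 9 models, of which 4 had their last exon in the overlap with TMEM53, 4 reached it otherwise and 1 avoided it. TMEM53 had 2 models in the overlap and 5 that avoided it with ends at least 17723 nt upstream. SLC25A26, the mitochondrial S-adenosylmethionine carrier gene, had 1 model in the overlap with LRIG1, a receptor tyrosine kinase regulator gene, and 7 that avoided it. CSTPP1 against ARFGAP2, the inositol phosphate synthase gene ISYNA1 against SSBP4, and SHMT2 against NDUFA4L2 each had 1 model in the overlap and 6 outside.

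In INTS11 and RPAIN most models entered the overlap, and in TOM1L1 and FAAP20 fewer did than avoided it. INTS11, the endonuclease gene of the Integrator complex, had 6 models in the overlap with PUSL1 and 1 that avoided it, and RPAIN had 6 and 1 against C1QBP. TOM1L1 had 3 in the overlap with the cytochrome oxidase assembly gene COX11 and 4 outside, and FAAP20, a Fanconi anaemia core complex gene, had 2 and 4 against PRKCZ. Over all members, avoiding models outnumbered those in the overlap in 29 genes. A count of models is not an abundance, and which form is more frequent in the cells cannot be read from it.

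**Figure D3:**
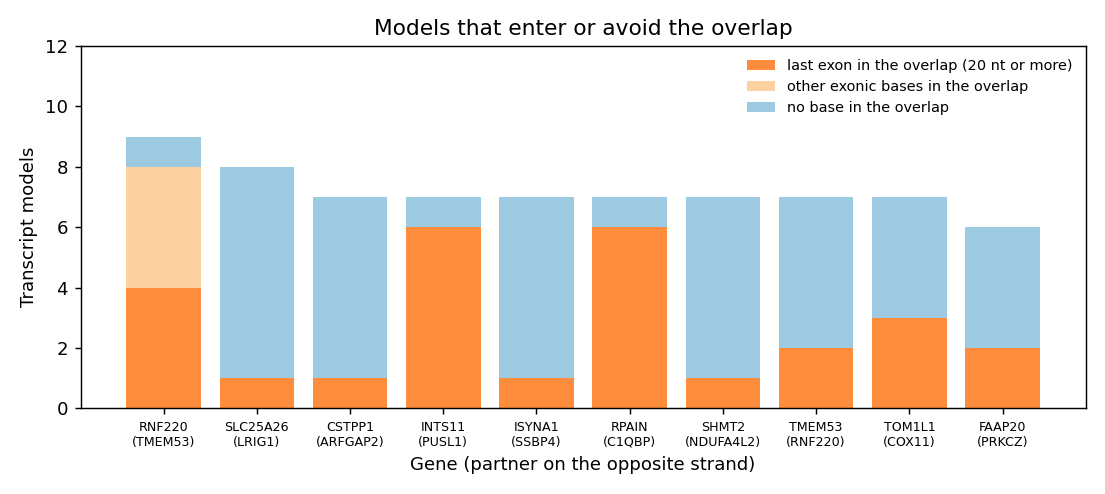
Number of transcript models (y axis) that have their last exon in the overlap, hold other exonic bases of it or avoid it, in the 10 member genes with the most models among those with both kinds (x axis, partner in parentheses). In SLC25A26 1 model enters the overlap and 7 avoid it, and in INTS11 6 enter it and 1 avoids it.

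A shorter 3' end with an unchanged stop codon was found in 17 genes. Genes whose models would differ in their 3' end alone could not be counted here. By the rule the overlapping models reach further, so the difference in 3' UTR is a description. The longest 3' UTR had a median of 851 nt in the overlapping models and 233 nt in the avoiding models of these 17 genes, and in 14 of them a single model reached the overlap. In NCAPH2 it was 1399 nt in the model opposite SCO2, and 94 and 97 nt in avoiding models. SIRT3, the mitochondrial deacetylase gene, had 1668 nt in the model that reached RIC8A and 554 to 1271 nt in 4 that did not. SHMT2 had 574 nt in the overlapping model and 365 nt in all 6 avoiding models. DEDD had 1175 nt in the model that reached NIT1 and 491 to 818 nt in 3 others, and the ribosomal protein gene RPL36 had 254 nt in the model that reached LONP1, the mitochondrial protease gene, and 45 nt in another. In FAM118B the 5 avoiding models ended between 8 and 283 nt before the overlap with SRPRA.

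Where the forms used another last exon, the coding regions differed as well, in either direction. In 55 genes with coding models of both kinds, the largest coding region of the overlapping models was longer than that of the avoiding models in 32, equal in 7 and shorter in 16. For the 34 of these with a coding model that used another last exon, the comparison with those models alone gave 21 longer, 1 equal and 12 shorter. In CENATAC, PHAF1 and SSB, among the 21, and ERVK3-1, among the 12, every avoiding coding region ended within 2 nt of the model's end. Whether those coding regions are complete was not tested. TUBB6, a beta-tubulin gene, had 105 codons in the model that overlapped AFG3L2 and up to 447 in models that avoided it. ZNF3 had 132 codons in the model inside ZSCAN21 and up to 447 in others, and TMEM53 had up to 118 and 278 codons. These 3 examples are all of the less frequent direction, with the shorter coding region in the overlap. They were picked with their values in view.

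In 2 measures the members were set beside other genes. Separate, non-overlapping last exons were found in 52 of the 184 members with at least 2 models (28.3%, 95% Wilson interval 22.3 to 35.2%). The share was 15.0% (11.0 to 20.3%) of 226 such genes among convergent neighbours that ended 1 to 1000 nt apart, and 27.0% over all 4728 loci with at least 2 models. The rule searched the last exons of every model, so genes with more last exons had more chances to become members, and no test is given. Candidates for nonsense-mediated decay, models whose coding region ends more than 50 nt before the last junction, made up 2.54% of the members' 670 coding models, 3.54% of the neighbours' 875 and 3.14% of all 17247.

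Members had a mean of 2.64 ± 1.86 models (SD over genes, n = 292), against 2.68 ± 2.16 for the 350 non-overlapping neighbours (n = 350) and 2.09 ± 1.69 for all other genes (n = 9178). The longest last exon of a gene had a median of 765.5 nt in members, 648 nt in neighbours and 795 nt in all other genes. The longest 3' UTR had a median of 525 nt in members, 499 nt in neighbours and 608 nt in all other genes.

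The distance between the 3' ends of convergent neighbours placed the overlaps in a wider distribution. Neighbours were defined as genes on opposite strands that were each other's nearest by the outermost 3' end, with spans in convergent order. In 61 pairs the ends passed each other by less than 100 nt, in 17 by 100 to 199 nt and in 11 by 200 to 299 nt. They lay apart by 1 to 100 nt in 28 pairs, and by the next 2 steps of 100 nt in 23 and 29. The bin of shallow overlap was thus the fullest bin plotted. Within 10 kb the ends passed each other in 183 pairs, of which 138 were members, and lay apart in 620.

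**Figure D4:**
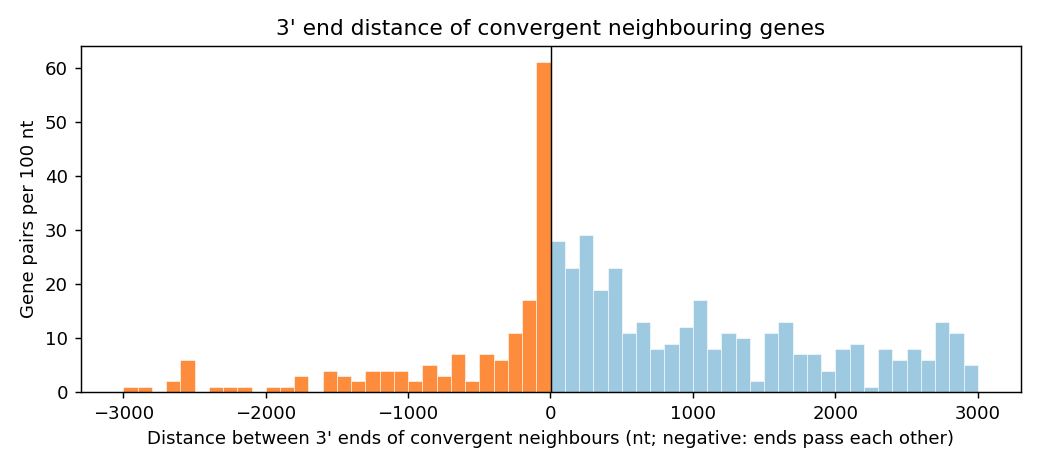
Number of convergent neighbouring gene pairs per bin of 100 nt (y axis) by the distance between their outermost 3' ends in nt (x axis; orange, ends that pass each other; blue, ends that lie apart). The bin of ends that pass by less than 100 nt holds 61 pairs and the bin next to it, of ends 1 to 100 nt apart, holds 28.

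The pairs were spread over 23 chromosomes. Chromosome 17 had the most with 19 pairs, whose 38 genes were 6.53% of its 582 genes, against the 3.08% of all loci. It was followed by chromosome 1 with 17 pairs (34 of 940 genes, 3.62%). Chromosome 19 had 9 pairs (18 of 715 genes, 2.52%) and chromosome X had 1 (2 of 323 genes, 0.619%).

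Pairs known from general knowledge were present in part. Of 10 listed convergent or antisense pairs, both genes had a model in 6, and 4 of these were members. Besides THRA and NR1D1, they included the deoxyhypusine synthase gene DHPS and WDR83 (116 nt on chromosome 19), and ERCC1 and the RNA polymerase I subunit gene POLR1G (112 nt on chromosome 19). All 8 DHPS models and all 4 WDR83 models held their overlap, in which 41 nt were coding on the DHPS strand. All 10 ERCC1 models held the overlap with POLR1G, 51 nt of it coding, whereas 1 of 2 POLR1G models avoided it. In the other 2 pairs with models of both genes the ends lay apart, by 309 nt for SURF2 and SURF4 and by 341 nt for TYMS, the thymidylate synthase gene, and ENOSF1.

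Lists of genes that act on 3' ends or on double-stranded RNA, and of genes that mark the cell types, were searched for members. None of 19 cleavage and polyadenylation genes with a model and none of 4 Argonaute pathway genes was a member. Of 12 genes for proteins that bind or sense double-stranded RNA 1 was, ILF2, which overlapped the SNARE-associated gene SNAPIN by 37 nt of 3' UTR on chromosome 1. None of 16 neural progenitor and none of 16 pluripotency genes was a member. With 3.08% of all loci being members, lists of this size would on average hold fewer than 1 member at the background share. These counts therefore do not set the lists apart.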

How the data were processed

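Per the labels' protocols the libraries were strand-specific and of polyadenylated RNA, and those other than the cytosol were fractionated by ribosome number (Frac-seq). The long-read libraries used R2C2, which reads circularised cDNA repeatedly. The values used are positions in nt, counted from 1, of exons and coding regions in the authors' deposited transcript models. STAR 2.7.8a and Salmon 1.9.0 are named without a role in the submitters' processing notes. Not given in the sources used here were the model builder, the coding-region caller, the annotation and the genome build, so coordinates are printed as deposited and no sequence is shown.

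Last exons were compared between opposite strands with Python 3.11.15, after a check on simulated models. The overlap of a pair is the intersection of all last exons of both genes. A model avoids it when none of its exonic bases lie in it. Gene types came from RefSeq's table (GRCh38.p14), which matched 288 of 292 members. The 10 longest overlaps, the 10 with the most coding bases, all pairs coding on both strands, the 10 genes with the most models, list members and pairs next to the threshold were named. Members, lists and rules were chosen with earlier results of these data known. No test across libraries was possible. Wilson intervals (95%) cover counting error only, and genes are not replicates. Values of some genes that these rules name are not reported here.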

Additional observations from a re-analysis of the deposited data

How the results depend on the processing

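No paired analysis was possible because the catalogue carries no value per library. The number of pairs (146) was 91 with a minimum overlap of 100 nt. It was 27 when at least 2 models of each gene had to lie in the overlap. Only the 59 pairs in which both genes had at least 2 models could meet this. The number stayed between 119 and 173 with minima of 1 and 50 nt and with the longest model of each gene. Coding models alone or any exon of the partner also kept it in this range. None of the 43 identifiers that join 2 names was in a pair, so leaving them out could not change the number. The median overlap (176.5 nt) was 133, 223 and 263 nt with minima of 1, 50 and 100 nt, which by construction drop or add the shortest overlaps, and 131 nt with the longest model of each gene, for which the cause was not tested. The share of overlap bases that are coding on at least 1 strand (27.6%) was 24.1% when a base had to be coding in each coding model that holds it, 22.1% as a mean over pairs and 29.1% with a minimum of 100 nt. The share of genes with an avoiding model (40.2%) stayed between 37.6 and 43.4% under 5 alternatives, 1 of them, without models whose coding region ends within 2 nt of the model's end, chosen after seeing the data. Depth is unknown, which limits how completely the 3' ends of a gene were sampled. Models that differ in their 3' end alone are not represented, which also limits the avoiding forms that could be seen.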
